A study of Mus musculus with 94 samples.

Results

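The 37 genes described here act in homologous recombination, in the rescue of stalled replication forks and in the signaling and end joining that border on both. They were taken by symbol from the gene table, and all 37 were found among its 49080 genes, the histone gene H2afx under its current symbol H2ax. The genes were read in 94 tumors of 4T1, a murine mammary carcinoma line, grown under the skin of the right hind limb. The hosts were female BALB/c mice, 8 weeks old when the cells were injected and older when tumors were taken. There were 25 tumors given 1 dose of 6 Gy x-rays (6 Gy), 25 from mice that drank indomethacin at 30 mg/L (INDO), 24 that received both (6 Gy + INDO) and 20 untreated tumors (control). Indomethacin is a nonsteroidal drug that inhibits the cyclooxygenases COX1 and COX2. Tumors were taken 1, 3, 7, 15 and 23 days after irradiation (IR), with 5 tumors per treated group and day, except 4 for 6 Gy + INDO on day 3. Control tumors numbered 4, 5, 5, 3 and 3 on these days. All tumors come from 1 transplanted line and hold host cells as well, and total RNA was sequenced, so the values are transcript levels and not protein or repair activity.

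Homologous recombination repairs a broken chromosome by copying the intact sister DNA, which restricts it mainly to the S and G2 phases of the cell cycle. The break is first found by the MRE11-RAD50-NBS1 complex (Mre11a, Rad50, Nbn) and cut back with CtIP (Rbbp8) and EXO1 to leave single strands. BRCA1 with BARD1, PALB2 and BRCA2 then prepare these strands for pairing with the sister, helped by recombination accessory factors (Rad51c, Rad51d, Xrcc2, Xrcc3 and Rad54l), and the nucleases MUS81-EME1, GEN1 and SLX4 with its partners resolve the joined molecules and cut stalled forks. ATM and ATR with CHEK2 and CHEK1 signal the damage, DNA-PK (Prkdc with Xrcc5 and Xrcc6) and XRCC4 serve the rival end joining route, and RNase H2 removes ribonucleotides and RNA-DNA hybrids. Since many of these genes are transcribed most in dividing cells, each member was read both as CPM (counts scaled to the size of the library, adjusted by the trimmed mean of M-values, TMM) and after correction for Mki67, which encodes the proliferation antigen Ki-67.

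Total estimated counts per tumor ran from 20995830 to 109300093, with medians of 66638860 in 6 Gy, 41045071 in INDO, 37498218 in 6 Gy + INDO and 73437401 in control tumors. Structural RNAs took a median of 11.1% of counts in 6 Gy, 13.3% in INDO, 14.1% in 6 Gy + INDO and 7.54% in control tumors. The carcinoma label fitted its markers, since all 10 epithelial genes were detected, with median levels of 747 CPM for Krt8 and 317 CPM for Epcam. In 11 tumors, 8 of them 6 Gy + INDO, olfactory and vomeronasal receptor genes summed to 321 to 1880 CPM, against 41.8 to 129 CPM in the other tumors. Counts of calls without those 11 tumors are given beside the comparisons. Apart from them, INDO day 3 replicate 3 stood alone in lymphocyte transcripts, with 611 CPM summed over the B cell markers, against at most 9.13 CPM in any other tumor, and it was the lowest of all 94 for 5 members.

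All 37 members passed the filter on low counts in every fit. Per kilobase of exon, control tumors had the highest median level for H2ax (24.2 CPM per kb), the histone variant that is phosphorylated at breaks, followed by Xrcc5 (18.2 CPM per kb), Rad50 (10.8 CPM per kb) and Mre11a (10.7 CPM per kb). The lowest were Rad51c (1.03 CPM per kb), Palb2 (1.07 CPM per kb) and the Fanconi gene Fanci (1.67 CPM per kb). The MUS81-EME1 nuclease genes stood at 3.34 CPM per kb for Mus81 and 2.57 CPM per kb for Eme1.

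The first question was how far each member followed Mki67 among tumors of the same treatment and day. In 1 model with a mean per treatment and day and the log2 CPM of Mki67 as covariate, 24 of 37 members rose with Mki67 (64.9%) and 0 fell, against 8.55% and 9.23% of all 29372 genes tested. The median slope of the members was 0.34 log2 units per doubling of Mki67, against 0.06 over all genes. A slope of 1 would mean that a member doubled with Mki67 and 0 that it did not move with it. The count stayed between 19 and 36 under the alternatives tried, and between 19 and 25 without each replicate number in turn.

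With TMM scaling the roles differed in how many members were called on Mki67. The roles hold 2 to 7 genes each, and differences between roles were not tested. With housekeeping scaling nearly all members rose with Mki67, as given below. Among the fork and junction nucleases, Eme1 had the steepest slope of all 37 (0.91 ± 0.08 SE, adjusted p = 6.1e-15) and the Holliday junction resolvase gene Gen1 had 0.80 ± 0.08. Slx4, the scaffold for several nucleases, had 0.37 ± 0.07. Mus81, which encodes the catalytic partner of EME1, had a slope of -0.11 ± 0.08 (adjusted p = 0.37). Of the subunit genes of this enzyme, Eme1 thus moved with Mki67 among tumors of the same group, and no relation was detected for Mus81.

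All 4 BRCA mediators followed Mki67, with Brca1 at 0.87 ± 0.05 (adjusted p = 1.3e-22), Brca2 at 0.61 ± 0.07, Palb2 at 0.55 ± 0.06 and Bard1 at 0.31 ± 0.09. All 3 Fanconi genes did as well, with a median slope of 0.73. Of 5 recombination accessory genes, 4 were called, while Rad51d had a slope of -0.04 ± 0.05 (adjusted p = 0.64). Exo1 (0.83 ± 0.10), the helicase gene Blm (0.54 ± 0.05) and Rbbp8 (0.34 ± 0.06) led the 5 of 7 resection and helicase genes that were called. Among the checkpoint kinases Chek1 (0.61) and Chek2 (0.52) were above Atm (0.25, adjusted p = 0.012), and Atr and its partner Atrip, at 0.03 and 0.01, were not called. End joining and chromatin genes had the lowest share of calls, since of 7 only Prkdc, the catalytic subunit of DNA-PK, was called (0.36, adjusted p = 6.8e-07). Of the RNase H2 subunits, Rnaseh2b rose with Mki67 (0.24, adjusted p = 0.0083) and Rnaseh2a did not (-0.03).

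**Figure D1:**
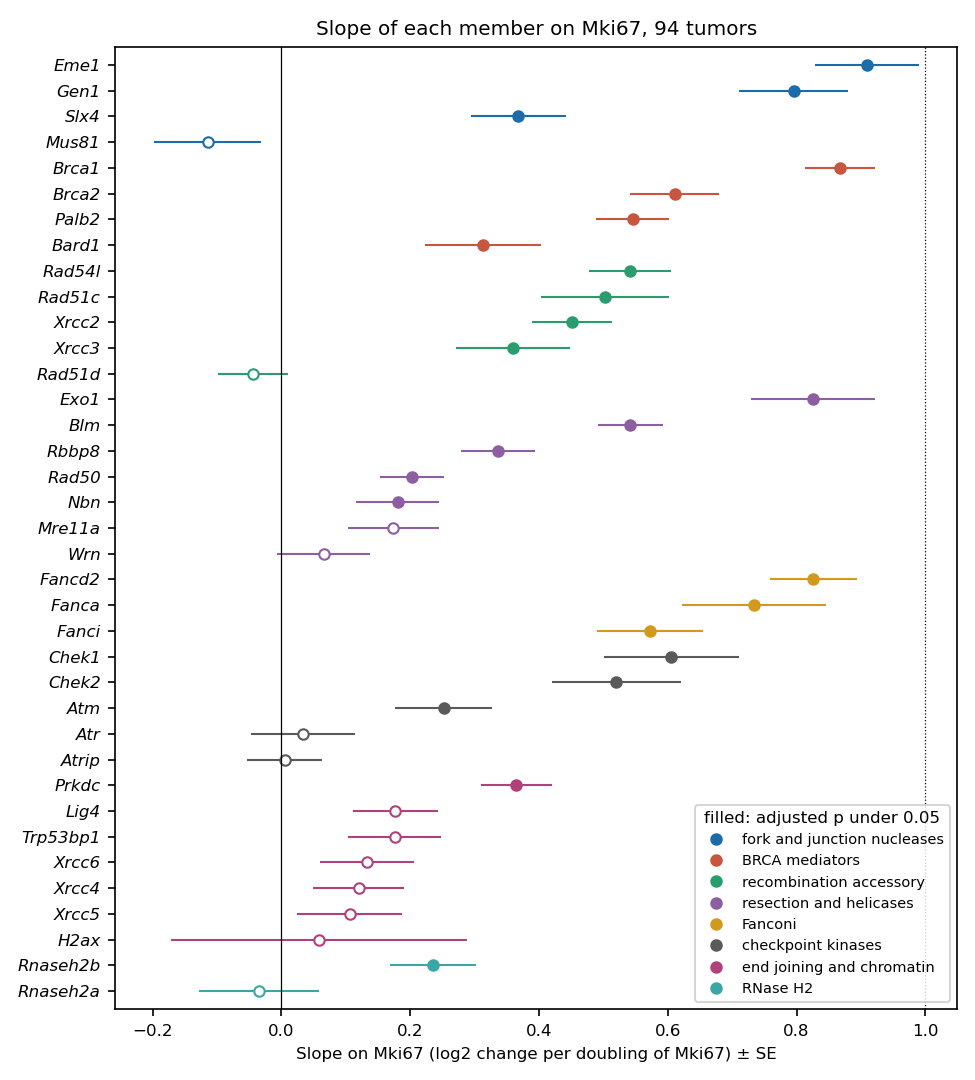
Slope of each of the 37 members on Mki67 (log2 change in CPM per doubling of Mki67 CPM, horizontal axis), grouped by role down the page. Points are slopes with ± SE bars from 1 fit of 94 tumors, filled where the adjusted p is under 0.05; Eme1 (0.91) and Brca1 (0.87) lie farthest right, and Mus81 (-0.11) and Rad51d (-0.04) lie left of 0.

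The values behind these slopes are wide. Over the 94 tumors Mki67 ran from 124 to 731 CPM with a median of 468 CPM. Brca1 ran from 12.4 to 87.9 CPM and Eme1 from 1.82 to 16.4 CPM. The lowest Brca1, Eme1 and Mki67 values are of 1 tumor, control day 23 replicate 1, which was the lowest of all 94 for 14 members. At the other end, 6 Gy day 1 replicate 5 (Mki67 716 CPM) was the highest of all 94 tumors for 20 members.

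**Figure D2:**
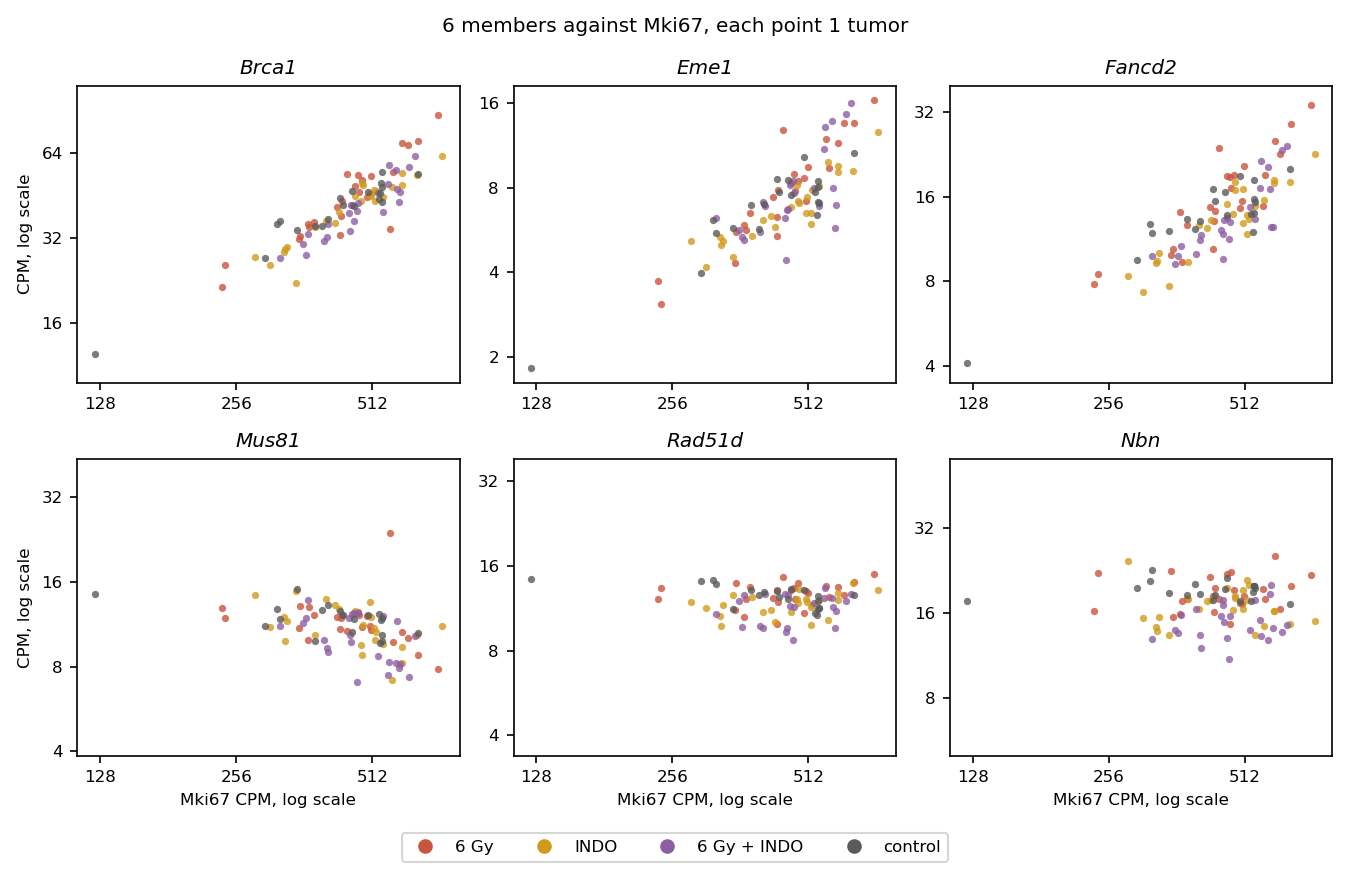
CPM of Brca1, Eme1, Fancd2, Mus81, Rad51d and Nbn (vertical axes, log scale) against CPM of Mki67 (horizontal axes, log scale) in 94 tumors, colored by treatment. Brca1, Eme1 and Fancd2 climb with Mki67 in every treatment, while Mus81 and Rad51d do not climb with it.

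After correction, each member's CPM was set to the level its slope gives at the average Mki67. The spread of Brca1 over the 94 tumors narrowed to an SD of 5.21 CPM after correction, against 11.7 CPM before. For Eme1 the SD was 1.54 CPM after correction, against 2.76 CPM before, and for Mus81 it was 2.14 CPM after correction, against 2.22 CPM before. Corrected Brca1 averaged 44.6 ± 6.83 CPM in 6 Gy, 40.1 ± 3.57 CPM in INDO, 38.9 ± 4.13 CPM in 6 Gy + INDO and 42.2 ± 3.65 CPM in control tumors (SD). The slope depends on the scaling: with library sizes taken from 14 housekeeping genes, 36 of 37 members rose with Mki67, and with a score over 15 proliferation genes in place of Mki67, 29 did.

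Promoter sequence was looked up for the same members as a description. E2F factors drive S phase genes through sites of the form TTTCCCGC, TTTCGCGC, TTTGCCGC or TTTGGCGC, here counted on either strand from 250 bases before to 50 bases after the transcription start. Promoters of RefSeq (GRCm38.p6) were found for 26 of 37 members, 29 promoters in all. One of these 8-base words stood in 6 of the 29 (20.7%), against 744 of 32851 promoters of all genes (2.26%). It stood in 5 of 18 promoters of members with a called slope (27.8%) and in 1 of 11 promoters of the others (9.09%). The 18 promoters belong to 16 genes and the 11 to 10 genes, and both promoters of Rad51c are among the 5. Most promoters of members with a called slope thus lacked the word, and the difference was not tested. The words do not overlap within a promoter, and a match is a description of letters, not a shown binding site. Below are the 3 members with a called slope and 1 matching promoter, and Xrcc6, the only matching promoter among members without one, each 5′ to 3′ on the strand of the gene with the matching word in capitals and the position of its first base relative to the transcription start.
Brca2, chr5:150522371-150522670, plus strand, word GCGGGAAA at position -168: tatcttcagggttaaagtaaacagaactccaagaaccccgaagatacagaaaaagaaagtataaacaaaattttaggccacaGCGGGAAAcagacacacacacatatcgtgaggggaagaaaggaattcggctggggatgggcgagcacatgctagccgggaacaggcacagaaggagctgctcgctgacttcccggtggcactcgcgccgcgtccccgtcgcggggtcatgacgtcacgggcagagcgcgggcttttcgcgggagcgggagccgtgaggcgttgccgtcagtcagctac
Chek2, chr5:110839733-110840032, plus strand, word GCGGGAAA at position -152: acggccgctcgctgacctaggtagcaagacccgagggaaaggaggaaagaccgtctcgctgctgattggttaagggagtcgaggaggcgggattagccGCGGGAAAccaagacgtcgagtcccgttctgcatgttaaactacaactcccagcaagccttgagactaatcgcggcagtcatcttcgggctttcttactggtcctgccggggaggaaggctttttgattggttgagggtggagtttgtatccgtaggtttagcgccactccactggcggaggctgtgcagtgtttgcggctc
Bard1, chr1:71102923-71103222, minus strand, word TTTCCCGC at position -209: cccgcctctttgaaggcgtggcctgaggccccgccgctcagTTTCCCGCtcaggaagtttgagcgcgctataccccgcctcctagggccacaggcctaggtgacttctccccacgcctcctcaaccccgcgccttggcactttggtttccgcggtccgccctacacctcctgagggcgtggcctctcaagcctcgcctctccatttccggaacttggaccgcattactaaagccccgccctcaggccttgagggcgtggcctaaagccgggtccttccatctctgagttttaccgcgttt
Xrcc6, chr15:82016119-82016418, plus strand, word GCGGGAAA at position -46: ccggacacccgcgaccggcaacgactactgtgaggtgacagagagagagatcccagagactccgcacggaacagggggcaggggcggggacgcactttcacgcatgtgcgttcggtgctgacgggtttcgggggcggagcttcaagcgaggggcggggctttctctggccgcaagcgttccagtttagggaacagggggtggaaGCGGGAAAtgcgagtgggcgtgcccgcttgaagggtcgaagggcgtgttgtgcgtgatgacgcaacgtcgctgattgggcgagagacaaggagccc
The remaining matches are 2 promoters of Rad51c, the accessory gene whose slope on Mki67 was 0.50. The promoters of Eme1 and Brca1, which had the steepest slopes, held none of these words in this window.

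Mki67 itself was the first thing compared between treatments, since it carries the correction. It averaged 465 ± 115 CPM in 6 Gy, 469 ± 113 CPM in INDO, 485 ± 90.5 CPM in 6 Gy + INDO and 438 ± 119 CPM in control tumors (SD). The lowest, median and highest values were 238, 468 and 716 CPM in 6 Gy, 282, 487 and 731 CPM in INDO, 320, 470 and 636 CPM in 6 Gy + INDO and 124, 451 and 646 CPM in control tumors, so that the groups overlapped widely. As a mean over the 5 days, Mki67 was higher in 6 Gy + INDO than in control (log2 fold change 0.21 ± 0.09, adjusted p = 0.047) and not called in 6 Gy (0.14 ± 0.09, adjusted p = 0.32) or INDO (0.14 ± 0.09, adjusted p = 0.22). The 15 proliferation genes as a list did not rise with it: in 6 Gy + INDO 1 was higher and 7 were lower than in control, with a median of -0.16.

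When compared with control as a mean over the 5 days, 6 Gy tumors had 8 of 37 members higher and 0 lower, against 9.19% of 29373 genes higher and 10.6% lower. The member median was 0.08 on the log2 scale, against 0.03 for all genes. At an unadjusted p under 0.05 there were 14 members, and DESeq2 called 9 higher and 0 lower. Higher among checkpoint kinases were Atm and Atr. Among end joining and chromatin genes they were the DNA-PK catalytic subunit gene Prkdc, the ligase partner gene Xrcc4 and Trp53bp1, whose product 53BP1 shields broken ends from resection. Blm, Fancd2 and Eme1 were the other 3, and none of the 4 BRCA mediators and none of the 5 recombination accessory genes were called. Of the same roles as the called kinase and end joining genes, Atrip, Chek1, Chek2, Xrcc5, Xrcc6, Lig4 and H2ax were not called. H2ax had the lowest fold change of the 37 (-0.17). All comparisons with control share the same 20 control tumors.

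Atm had a lowest, median and highest value of 71.1, 97.4 and 139.5 CPM in 6 Gy tumors, against 58.4, 81.7 and 125 CPM in control tumors. The ranges overlapped and the 6 Gy median lay above the control median, with a log2 fold change of 0.29 ± 0.06 (adjusted p = 0.00031). Prkdc stood at 45.8, 57.4 and 89.8 CPM in 6 Gy, against 34.5, 51.5 and 64.3 CPM in control (0.25 ± 0.06, adjusted p = 0.0005). Xrcc4 stood at 13.7, 18.0 and 23.2 CPM in 6 Gy, against 10.9, 13.7 and 19.7 CPM in control, so that the lowest 6 Gy tumor lay at the control median (0.22 ± 0.06, adjusted p = 0.0028). Atr, which responds to single-stranded DNA at stalled forks, stood at 73.8, 108 and 137 CPM in 6 Gy, against 72.2, 85.3 and 123 CPM in control (0.24 ± 0.06, adjusted p = 0.004).

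Eme1 stood at 3.09, 7.83 and 16.4 CPM in 6 Gy, against 1.82, 7.09 and 10.7 CPM in control tumors (0.28 ± 0.10, adjusted p = 0.041). That call was lost without replicate number 1 (adjusted p = 0.23), 2, 4 or 5, and without days 1, 3, 7 or 23. Mus81 stood at 7.83, 11.9 and 23.9 CPM in 6 Gy, against 9.69, 11.9 and 15.1 CPM in control, with equal medians and no call. Correction for Mki67 left 6 members higher and 1 lower (8.71% and 10.6% of all genes). Eme1 (0.13, adjusted p = 0.14) and Fancd2 (0.14, adjusted p = 0.057) were no longer called, Rbbp8 was lower (-0.13, adjusted p = 0.047), and Atm (0.26 ± 0.06, adjusted p = 0.00082), Prkdc (0.19 ± 0.05, adjusted p = 0.0013) and Atr (0.23 ± 0.07, adjusted p = 0.0062) had the smallest p-values. Atm, Atr, Prkdc and Xrcc4 were called higher under all 5 of the settings set side by side: both scalings, each with and without Mki67, and the proliferation score. Over the 14 wider alternatives with Mki67, Atm and Prkdc each lost the call in 1 (adjusted p = 0.34 and 0.62). Atr lost it in 3 (up to 0.83) and in 1 of 5 left-out replicate numbers (0.061). Without Mki67, Xrcc4 lost it in 2 of 12 alternatives (up to 0.19).

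With the score over the 15 proliferation genes in place of Mki67, 10 members were higher in 6 Gy and 1 lower. Here and below, shares of all genes are not given for fits with the score or with tumors left out. Those counts of members thus cannot be set against all genes. Without the 11 tumors with high receptor counts, 6 members were higher in 6 Gy and 0 lower, and 5 and 1 with Mki67. The count of 8 fell to 5 without replicate number 1, 4 or 5, to 2 without day 1 and to 3 without day 3, and rose to 17 without day 15. With Mki67 the count of 6 fell to 3 without replicate number 5 or day 3 and to 2 without day 1, and Rbbp8 was no longer called without number 2, 3 or 4. Markers of other cells moved as well: all 10 T cell, all 8 endothelial and all 8 fibroblast markers were lower in 6 Gy than in control, with median log2 fold changes of -1.47, -0.79 and -0.92, and the summed fibroblast level ran from 322 to 6367 CPM in 6 Gy, against 2250 to 16150.5 CPM in control. Of macrophage markers 9 of 10, of adipocyte markers 7 of 8 and of B cell markers 2 of 6 were lower as well, while the 10 epithelial markers had a median of 0.00, with 1 higher. The part of cell makeup in the member changes was not tested, and in bulk tumors fewer cells of a type and less RNA per cell cannot be told apart.

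INDO tumors had 3 of 37 members higher than control and 6 lower as a mean over the days, against 16.8% and 17.4% of all genes, so the members' shares of 8.11% and 16.2% lay below the first and near the second. The member median was -0.03, against 0.07 for all genes. The recombination accessory gene Xrcc3, Slx4 and Atm were higher. Genes of break recognition and end processing (Nbn, Rbbp8), of the Ku heterodimer (Xrcc5, Xrcc6), Rad51d and Rnaseh2a were lower.

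Xrcc3 stood at 9.50, 12.5 and 18.4 CPM (lowest, median and highest) in INDO tumors, against 7.10, 9.97 and 14.7 CPM in control tumors, and rose by 0.34 ± 0.08 on the log2 scale (adjusted p = 0.00033). Rbbp8, whose product starts resection, stood at 23.5, 33.0 and 42.6 CPM in INDO, against 29.0, 39.9 and 46.0 CPM in control (-0.23 ± 0.05, adjusted p = 0.00051). Rnaseh2a, the catalytic subunit of RNase H2, stood at 15.9, 26.8 and 37.8 CPM in INDO, against 24.8, 33.0 and 48.6 CPM in control (-0.28 ± 0.07, adjusted p = 0.0017). The ranges overlapped for each of the 3 genes. The Rnaseh2a call was lost without replicate number 3 (adjusted p = 0.072) and without day 7 (adjusted p = 0.093), and the Rbbp8 call without day 7 (adjusted p = 0.063). The count of lower members fell to 3 without replicate number 2, to 1 without number 3 and to 0 without day 7, and that of higher members to 1 without number 1, 3, 4 or 5 or without day 1. Without the high-receptor tumors 1 was higher and 6 lower, and without INDO day 3 replicate 3, the tumor with B cell transcripts, 2 were higher and 6 lower, Slx4 being lost (0.15, adjusted p = 0.07).

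Correction for Mki67 left 1 member higher in INDO and 11 lower (15.4% and 16.3% of all genes). Xrcc3 was the higher one (0.28 ± 0.07, adjusted p = 0.0015), and Rbbp8 (-0.29 ± 0.05, adjusted p = 2e-06) and Nbn (-0.23 ± 0.05, adjusted p = 0.00061) had the smallest p-values among the lower. Nbn stood at 13.3, 16.5 and 24.4 CPM in INDO, against 17.2, 19.2 and 22.7 CPM in control tumors, so the INDO median lay under the lowest control tumor. Chek1, Chek2, Exo1, Gen1, Rad51c and Rnaseh2b joined the lower members and Rad51d left them. The lower count was 3 without replicate number 2, 2 without number 3 and 2 without day 7, 14 without the high-receptor tumors and 7 without INDO day 3 replicate 3 alone, where Gen1, Exo1, Chek2 and Rnaseh2b were lost (adjusted p from 0.06 to 0.1). Eme1, at 4.19, 6.495 and 12.7 CPM in INDO, against 1.82, 7.09 and 10.7 CPM in control, and Mus81, at 7.19, 11.1 and 14.9 CPM in INDO, against 9.69, 11.9 and 15.1 CPM in control, were not called.

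These counts moved with the correction and the scaling. With the proliferation score in place of Mki67, 11 members were higher in INDO and 4 lower, a count without the share of all genes beside it. With housekeeping scaling, which raised the median of all genes by 0.14 log2 units, 9 members were higher and 0 lower without Mki67 (23.4% and 6.27% of all genes). With Mki67, 1 was higher and 4 were lower (12.6% and 10.3% of all genes). Xrcc3 was higher in all 5 settings. Nbn, Rbbp8, Xrcc5 and Rnaseh2a were lower under TMM scaling whether uncorrected or corrected by Mki67 or the score, and of the housekeeping genes themselves 8 of 14 were lower in INDO than in control. Endothelial and fibroblast markers, 8 of 8 each, were lower in INDO, with medians of -0.74 and -0.92, as were 7 of 8 adipocyte (-1.72), 5 of 7 neutrophil (-0.75), 5 of 10 macrophage, 4 of 10 epithelial and 1 of 10 T cell markers, while 2 of 6 B cell markers were higher. The summed endothelial level ran from 78.2 to 211 CPM in INDO, against 102 to 425 CPM in control, and the part of these markers in the member changes was not tested.

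Of the 37 members, 5 were higher in 6 Gy + INDO than in control and 11 lower as a mean over the days, against 29.6% and 23.2% of all genes. The member median was -0.05, against 0.19 for all genes. The median of all genes varied with the span of the gene on the chromosome. It was 0.66 for genes of up to 5 kb and -0.05 for genes of 20 to 50 kb. Higher were Xrcc3, the helicase gene Blm, Palb2, which joins BRCA1 to BRCA2, the DNA translocase gene Rad54l and Trp53bp1. Lower were Nbn, Rbbp8 and Wrn of resection and helicases, Xrcc5, Xrcc6 and Prkdc of DNA-PK, both RNase H2 subunits, Rad51d, Atr and Mus81.

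Nbn stood at 10.96, 14.3 and 20.2 CPM (lowest, median and highest) in 6 Gy + INDO tumors, against 17.2, 19.2 and 22.7 CPM in control tumors, and fell by 0.39 ± 0.05 on the log2 scale (adjusted p = 1.6e-08). The 6 Gy + INDO median lay under the lowest control tumor. Rnaseh2a stood at 15.8, 24.3 and 30.5 CPM in 6 Gy + INDO, against 24.8, 33.0 and 48.6 CPM in control, and again the median lay under the lowest control tumor (-0.45 ± 0.07, adjusted p = 8.1e-07). Rbbp8 stood at 24.8, 31.1 and 40.5 CPM in 6 Gy + INDO, against 29.0, 39.9 and 46.0 CPM in control (-0.32 ± 0.05, adjusted p = 1.5e-06). Xrcc3 stood at 9.04, 14.4 and 17.8 CPM in 6 Gy + INDO, against 7.10, 9.97 and 14.7 CPM in control (0.41 ± 0.08, adjusted p = 9.5e-06).

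Of the MUS81-EME1 subunit genes 1 was called. Mus81 stood at 7.06, 10.1 and 13.8 CPM in 6 Gy + INDO, against 9.69, 11.9 and 15.1 CPM in control, and was lower by the test (-0.24 ± 0.07, adjusted p = 0.0025), a direction that turned with housekeeping scaling (0.08, adjusted p = 0.39). Eme1, at 4.43, 6.93 and 16.0 CPM in 6 Gy + INDO, against 1.82, 7.09 and 10.7 CPM in control, was not called.

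Corrected for Mki67, 1 member was higher in 6 Gy + INDO and 19 were lower (26.8% and 21.7% of all genes), with a member median of -0.15, against 0.18 for all genes. Rbbp8 (-0.41 ± 0.05, adjusted p = 4.7e-10), Nbn (-0.44 ± 0.05, adjusted p = 1.5e-09) and Rnaseh2a (-0.44 ± 0.08, adjusted p = 4.7e-06) led the lower members, and Xrcc3 (0.34 ± 0.07, adjusted p = 0.00011) was the higher one. Corrected for Mki67, Rbbp8 averaged 31.0 ± 2.92 CPM in 6 Gy + INDO and 40.6 ± 3.11 CPM in control tumors (SD). The 8 members that joined the lower ones with Mki67 were Brca1 (-0.12), Brca2 (-0.16), Rad51c (-0.31), Exo1 (-0.28), Fanca (-0.30), Fancd2 (-0.16), Chek1 (-0.24) and Chek2 (-0.26), and Blm, Palb2, Rad54l and Trp53bp1 were no longer called. These 8 depended on Mki67 as the measure: with the score over 15 genes, 14 members were higher and 10 lower, and Brca1 (0.20, adjusted p = 0.003), Fancd2 (0.17, adjusted p = 0.0043) and Exo1 (0.11, adjusted p = 0.029) were then higher than in control.

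**Figure D3:**
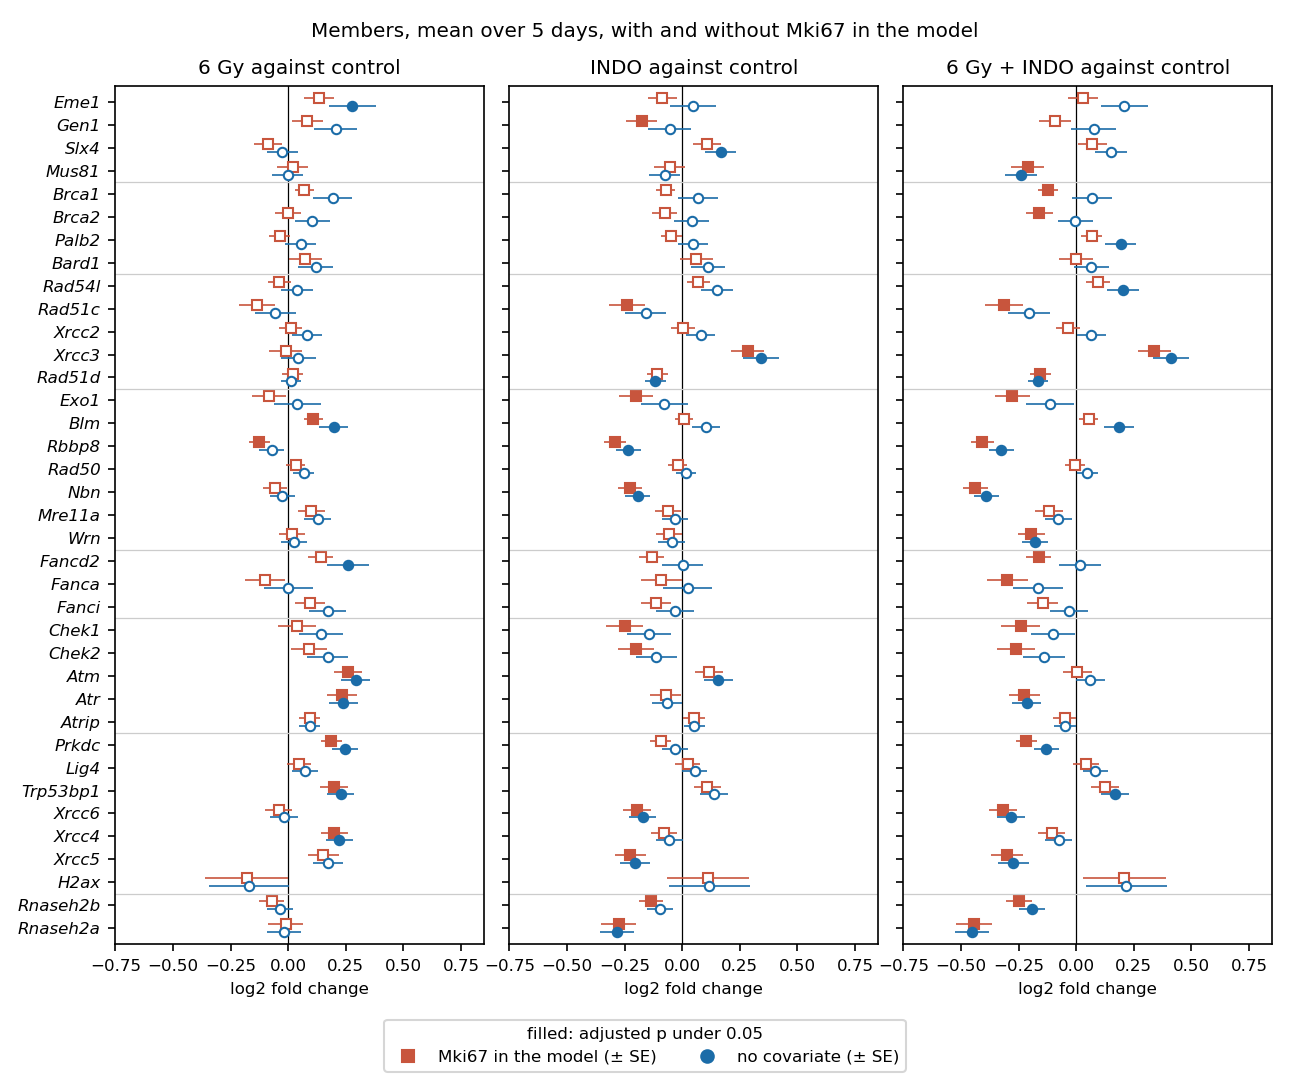
Log2 fold change of each of the 37 members (down the page, by role) in each of the 3 treatments against control (panels), as a mean over 5 days with ± SE bars, with Mki67 in the model (squares) and without it (circles). Xrcc3 lies right of 0 in INDO and 6 Gy + INDO, while Nbn, Rbbp8 and Rnaseh2a lie left of 0 there with both models.

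The lower members of 6 Gy + INDO also depended on the scaling. With library sizes from the 14 housekeeping genes, of which 10 were lower and 1 higher in 6 Gy + INDO than in control, the median of all genes rose by 0.32 log2 units and 52.8% of all genes were called higher and 4.6% lower. Without Mki67, 23 members were then higher and 0 lower; Nbn (-0.06, adjusted p = 0.52), Rbbp8 (0.00) and Rnaseh2a (-0.12, adjusted p = 0.057) were not called, and Rad51d (0.16, adjusted p = 0.011) and Prkdc (0.19, adjusted p = 0.042) turned to higher. With Mki67 and housekeeping scaling together, 4 were higher and 4 lower (25.4% and 7.47% of all genes). The lower ones were Nbn (-0.29, adjusted p = 4e-05), Rbbp8 (-0.29, adjusted p = 1.2e-05), Xrcc6 and Rnaseh2a (-0.20, adjusted p = 0.0049). A change of scaling moves all genes by nearly the same amount. Nbn, Rbbp8 and Rnaseh2a thus lay below the median of all genes under both scalings by construction, which is no further support. Their direction relative to control was called only with TMM or with Mki67. Xrcc3 was the 1 member called in 1 direction under all 5 settings (0.71, adjusted p = 3.7e-07 with housekeeping scaling).

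**Figure D4:**
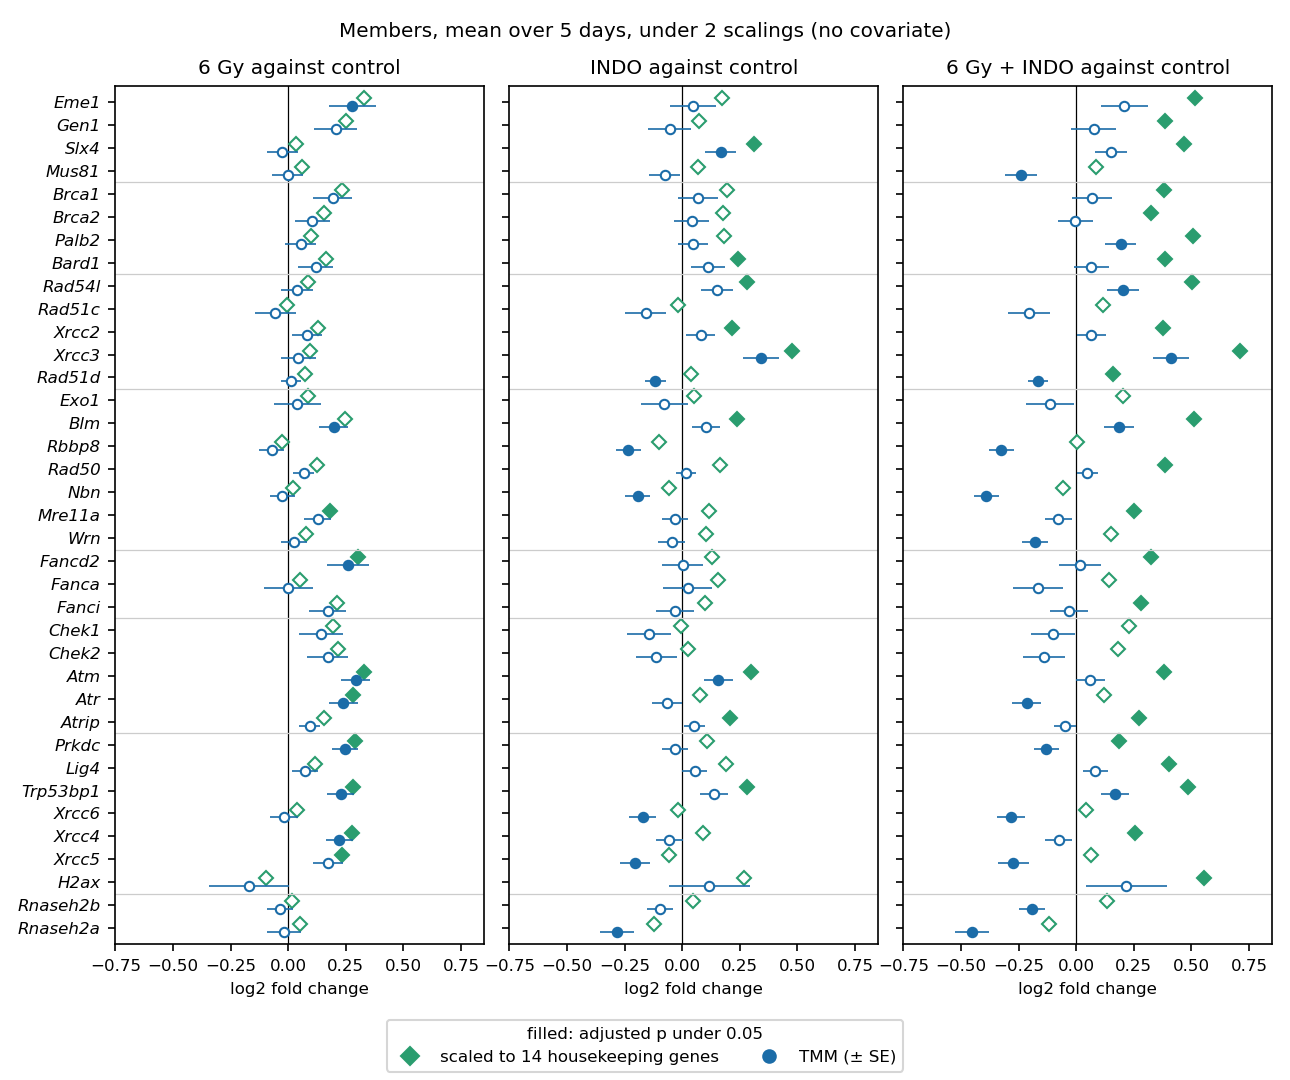
Log2 fold change of each of the 37 members in each treatment against control (panels) as a mean over 5 days, without Mki67, with TMM scaling (circles) and with scaling to 14 housekeeping genes (diamonds). The diamonds lie right of the circles, most in 6 Gy + INDO, where the median of all genes shifted by 0.32 log2 units.

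Of the 11 tumors with high receptor counts 8 are 6 Gy + INDO, and without them 2 members were higher and 10 lower than control, and 2 and 13 with Mki67. Without replicate number 4 the count of higher members fell to 1, without number 1 to 2 and without number 3 to 3, while the lower count stayed between 10 and 15 over the 5 replicate numbers. The higher count was 1 without day 1 and 2 without day 23, and with Mki67 the lower count was 12 without number 3 and 10 without day 7. Of the marker lists, 10 of 10 T cell, 8 of 8 endothelial, 8 of 8 fibroblast, 7 of 10 macrophage, 5 of 7 neutrophil, 7 of 8 adipocyte and 4 of 10 epithelial genes were lower in 6 Gy + INDO than in control, and their part in the member changes was not tested.

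When compared with 6 Gy alone, 6 Gy + INDO tumors had 4 of 37 members higher and 19 lower, against 25.9% and 19.8% of all genes, so that the lower share of the members was 51.4%. The member median was -0.16, against 0.19 for all genes. All 5 genes grouped as checkpoint kinases (Atm, Atr with its partner gene Atrip, Chek1 and Chek2) were lower. So were 4 of 7 end joining and chromatin genes, 4 of 7 resection and helicase genes and both RNase H2 subunits. Xrcc3, H2ax, Slx4 and Rad54l were higher.

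Atr stood at 60.0, 76.7 and 106 CPM (lowest, median and highest) in 6 Gy + INDO tumors, against 73.8, 108 and 137 CPM in 6 Gy tumors, with a highest 6 Gy + INDO tumor under the 6 Gy median (-0.45 ± 0.06, adjusted p = 2.9e-08). Prkdc stood at 34.7, 46.9 and 59.5 CPM in 6 Gy + INDO, against 45.8, 57.4 and 89.8 CPM in 6 Gy (-0.38 ± 0.05, adjusted p = 5.4e-08). Nbn stood at 10.96, 14.3 and 20.2 CPM in 6 Gy + INDO, against 14.7, 18.3 and 25.6 CPM in 6 Gy, where the median of 6 Gy + INDO lay under the lowest 6 Gy tumor (-0.36 ± 0.05, adjusted p = 5.9e-08). H2ax stood at 14.5, 32.6 and 111 CPM in 6 Gy + INDO, against 15.6, 28.4 and 68.1 CPM in 6 Gy, and its call was weaker (0.39 ± 0.16, adjusted p = 0.045). Mus81 was lower as well (-0.24 ± 0.06, adjusted p = 0.0019), a call lost without replicate number 2 (adjusted p = 0.082) and a direction that turned with housekeeping scaling (0.03).

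Correction for Mki67 left 5 members higher than in 6 Gy and 25 lower (25.0% and 19.9% of all genes), with Prkdc (-0.40 ± 0.04, adjusted p = 1.1e-10), Nbn (-0.38 ± 0.05, adjusted p = 1.5e-08) and Atr (-0.46 ± 0.06, adjusted p = 3.2e-08) in front. With housekeeping scaling and no Mki67, 11 were higher and 3 lower (49.9% and 2.65% of all genes). The 3 (Atr, Xrcc5 and Rnaseh2a) were lower under all 5 settings, while Xrcc3, Slx4, Rad54l and H2ax were higher under all 5. With the score over 15 genes in place of Mki67, 9 were higher and 13 lower. Without the high-receptor tumors 2 were higher and 14 lower, and 4 and 18 with Mki67. Of the marker lists, 11 of 15 proliferation genes (median -0.26), 6 of 10 epithelial genes (-0.25) and 6 of 7 neutrophil genes (-0.91) were lower in 6 Gy + INDO than in 6 Gy as well, as were 2 of 8 endothelial, 2 of 8 fibroblast and 1 of 10 macrophage genes, and 2 of 10 macrophage, 2 of 6 B cell and 1 of 10 T cell genes were higher. The summed proliferation level ran from 1173 to 2489 CPM in 6 Gy + INDO, against 957 to 3223 CPM in 6 Gy, and the part of these lists in the member changes was not tested. The higher count fell to 1 without replicate number 1, 3 or 4 and to 2 without number 5, and with Mki67 to between 1 and 3 without any number.

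When compared with INDO alone, 6 Gy + INDO tumors had 0 members higher and 1 lower (7.21% and 3.54% of all genes), with 8 members at an unadjusted p under 0.05 and the same counts of 0 and 1 by DESeq2. Nbn was the lower one, at 10.96, 14.3 and 20.2 CPM in 6 Gy + INDO, against 13.3, 16.5 and 24.4 CPM in INDO (-0.20 ± 0.05, adjusted p = 0.0087). Its call was lost without day 3 (adjusted p = 0.19) and with housekeeping scaling, where its fold change was 0.00. With Mki67 in the model 0 members were higher and 2 lower (5.98% and 3.46% of all genes), since Prkdc joined Nbn (-0.12 ± 0.04, adjusted p = 0.049), a call lost without replicate numbers 1 (adjusted p = 0.16), 2, 3 or 4, without the high-receptor tumors (0.39) and without INDO day 3 replicate 3 (0.053). With the score in place of Mki67, 3 members were higher and 3 lower. Without the high-receptor tumors the counts were 0 and 1 with and without Mki67, and of the marker lists 6 of 10 T cell and 2 of 6 B cell genes were lower in 6 Gy + INDO than in INDO, as was 1 each of the macrophage, endothelial and proliferation genes. The lower count without Mki67 was 3 without number 3 and 2 without number 4 or 5, and with Mki67 it was 5 without number 3.

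Within days the tests rest on 3 to 5 tumors per group, and a single tumor often decided a call. The genes printed by tumor are called members with the smallest p of the same comparison. A lack of overlap between their groups is thus partly set by that choice and is no further support. The share of all genes without overlap is not given here. On day 1, 6 Gy tumors had 6 members higher and 0 lower (6.15% and 9.43% of 22276 genes), 6 Gy + INDO tumors 6 higher and 1 lower (10.7% and 13.3%) and INDO tumors 1 higher and 0 lower (5.81% and 8.89%). Xrcc4 had 13.7, 13.9, 20.6, 21.9 and 19.3 CPM in 6 Gy, against 10.9, 12.7, 13.7 and 13.1 CPM in control (log2 fold change 0.51 ± 0.13, adjusted p = 0.013). Xrcc5, which encodes the larger Ku subunit, had 48.0, 38.1, 70.2, 71.0 and 73.6 CPM in 6 Gy, against 42.5, 42.4, 40.3 and 35.7 CPM in control (0.59 ± 0.15, adjusted p = 0.014). In both genes 3 of the 5 irradiated tumors stood clearly above the others, and the control tumors lay close together.

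Rad50 had 57.2, 54.2, 54.1, 56.6 and 61.7 CPM in 6 Gy tumors on day 1, against 47.5, 50.1, 43.0 and 48.1 CPM in control, with no overlap (0.27 ± 0.09, adjusted p = 0.035). Nbn was lower in 6 Gy + INDO without overlap, at 12.8, 13.2, 13.6, 15.1 and 14.5 CPM, against 17.7, 17.2, 19.4 and 19.995 CPM in control (-0.42 ± 0.10, adjusted p = 0.0059). Rad54l was higher without overlap, at 17.7, 19.1, 18.6, 16.3 and 16.998 CPM in 6 Gy + INDO, against 14.2, 15.4, 13.2 and 13.9 CPM in control (0.33 ± 0.09, adjusted p = 0.011). Eme1 was higher too, at 13.8, 13.1, 14.7, 10.97 and 16.0 CPM in 6 Gy + INDO, against 10.3, 10.7, 8.52 and 8.03 CPM in control, every treated tumor above every control tumor (0.55 ± 0.16, adjusted p = 0.018). Xrcc3 was the INDO call, at 17.5, 18.4, 16.5, 15.4 and 13.5 CPM, against 9.81, 14.7, 10.4 and 12.5 CPM in control (0.48 ± 0.14, adjusted p = 0.03). Single control tumors decided several of these: Xrcc4 was lost in 6 Gy without control replicate 1 (adjusted p = 0.051), Rad50 without control replicates 1, 3 or 4 or 6 Gy replicates 4 or 5 (up to 0.12), Xrcc3 without control replicates 1, 3 or 4 or INDO replicates 1, 2 or 3 (up to 0.11), and Eme1 without control replicates 3 or 4 (0.06). The 6 Gy count fell to 1 without control replicate 1, to 2 without control replicate 3 or 6 Gy replicates 4 or 5 and to 3 without control replicate 4, and reached 16 without 6 Gy replicate 2; the 6 Gy + INDO count of 7 fell to 3 without control replicates 1 or 3 and to 4 when control replicate 4 was left out or the 6 Gy + INDO replicate numbered 2, and reached 11 without 6 Gy replicate 2.

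In the day 1 model with Mki67, 5 members were higher and 0 lower in 6 Gy (5.6% and 8.42%), 0 and 2 in INDO (3.58% and 6.18%) and 3 and 3 in 6 Gy + INDO (9.71% and 12.0%). Brca1 led in 6 Gy, at 68.3, 53.5, 54.0, 70.6 and 87.9 CPM, against 46.7, 54.2, 47.1 and 55.0 CPM in control, groups that overlap before correction (0.28 ± 0.07 with Mki67, adjusted p = 0.014). That call was lost without control replicate 2 (adjusted p = 0.096). The 6 Gy count was then 0, fell to between 1 and 3 without control replicate 4 or 6 Gy replicates 3, 4 or 5, and reached 12 without 6 Gy replicate 2. The INDO count moved between 0 and 4 and the 6 Gy + INDO count between 3 (without control replicate 4) and 9. Fanca, a core Fanconi gene, was lower in INDO, at 23.7, 31.1, 26.9, 25.5 and 25.9 CPM, and in 6 Gy + INDO, at 21.7, 28.3, 29.4, 23.4 and 23.7 CPM, against 38.1, 39.8, 27.8 and 27.7 CPM in control (-0.47 ± 0.13, adjusted p = 0.024, and -0.50 ± 0.12, adjusted p = 0.0061), with 2 control tumors inside the treated ranges. Rbbp8 was lower in 6 Gy + INDO without overlap, at 34.0, 34.1, 33.6, 38.6 and 37.2 CPM, against 44.4, 42.6, 46.0 and 43.4 CPM in control (-0.38 ± 0.11, adjusted p = 0.017). With the score in place of Mki67 the day 1 counts were 4 higher and 0 lower in 6 Gy, 3 and 1 in INDO and 8 and 5 in 6 Gy + INDO. Without the high-receptor tumors they were 4 and 0, 2 and 0, and 6 and 1 without Mki67, and 5 and 0, 0 and 1, and 3 and 3 with it.

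On day 3, 6 Gy tumors had 3 members higher and 1 lower (3.62% and 4.1% of 21814 genes), 6 Gy + INDO tumors 0 higher and 2 lower (10.1% and 9.43%) and INDO tumors 0 in either direction (2.38% and 3.95%), with 3 INDO members at an unadjusted p under 0.05 and 2 called by DESeq2. Slx4 fell without overlap, at 20.7, 20.5, 22.9, 23.8 and 24.1 CPM in 6 Gy, against 31.5, 31.5, 30.3, 27.7 and 33.1 CPM in control (-0.46 ± 0.10, adjusted p = 0.013). Atr had 103, 114, 116, 108 and 123 CPM in 6 Gy, against 86.5, 82.5, 75.1, 84.6 and 77.1 CPM in control (0.47 ± 0.12, adjusted p = 0.022). Bard1 had 61.1, 56.9, 58.1, 54.4 and 61.9 CPM in 6 Gy, against 53.0, 37.0, 33.4, 26.5 and 38.2 CPM in control (0.63 ± 0.17, adjusted p = 0.026). In these 3 genes, picked for their small p, every irradiated tumor lay on 1 side of every control tumor.

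Nbn on day 3 had 14.1, 10.96, 12.0 and 13.9 CPM in 6 Gy + INDO, against 19.7, 19.9, 18.6, 17.7 and 17.8 CPM in control (-0.52 ± 0.14, adjusted p = 0.015). Mus81 had 8.18, 7.06, 8.98 and 8.71 CPM in 6 Gy + INDO, against 9.84, 12.0, 12.3, 12.3 and 12.6 CPM in control (-0.48 ± 0.14, adjusted p = 0.025). Both were lower without overlap under TMM. With housekeeping scaling they stood at -0.06 and -0.03 without a call, while 10 other members were higher (33.7% of all genes). Of these 4 tumors 3 (replicates 1, 2 and 4) are among those with high receptor counts, at 474 to 1880 CPM, and without the high-receptor tumors 0 members were called in 6 Gy + INDO, without or with Mki67 (Nbn -0.62, adjusted p = 0.3; Mus81 -0.37, adjusted p = 0.57). That fit holds 1 tumor of 6 Gy + INDO, which is assumed to vary like those of the other groups. Nbn was lost without 6 Gy + INDO replicate 2 (adjusted p = 0.059), Mus81 when control replicate 2, 3 or 5 was left out or the 6 Gy + INDO replicate numbered 1 or 2 (up to 0.11), Atr without 6 Gy replicate 2 (0.051) and Bard1 without control replicates 2, 3 or 4 or 6 Gy replicates 2, 3 or 5 (up to 0.061). With Mki67 the counts were 5 higher and 1 lower in 6 Gy (4.36% and 4.88%), 0 in INDO (2.75% and 4.3%) and 0 higher and 5 lower in 6 Gy + INDO (10.6% and 10.5%), where Rbbp8 joined at 31.1, 28.8, 26.5 and 32.1 CPM, against 41.3, 42.1, 36.5, 39.2 and 36.5 CPM in control (-0.39 ± 0.09, adjusted p = 0.0088). Over the left-out tumors the 6 Gy total moved between 1 (without 6 Gy replicate 2) and 8 (without 6 Gy replicate 1), the INDO total between 0 and 1, and the 6 Gy + INDO total between 0 (without 6 Gy + INDO replicate 2) and 6 (without INDO replicate 3). With Mki67 these ranges were 3 to 8, 0 to 1 and 2 to 7. With the score in place of Mki67, 0 members were higher and 1 lower in 6 Gy, 1 and 0 in INDO and 2 and 2 in 6 Gy + INDO. Without the high-receptor tumors 2 were higher and 1 lower in 6 Gy, and 4 and 1 with Mki67.

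On day 7, 6 Gy tumors had 2 members higher and 0 lower (5.69% and 10.3% of 21874 genes), INDO tumors 2 higher and 3 lower (12.7% and 11.7%) and 6 Gy + INDO tumors 2 higher and 6 lower (24.8% and 21.2%). Atr had 137, 137, 108, 106 and 112 CPM in 6 Gy, against 91.7, 76.7, 84.5, 104 and 83.5 CPM in control (0.45 ± 0.14, adjusted p = 0.03). Bard1 had 55.5, 51.9, 39.9, 47.4 and 45.2 CPM in 6 Gy, against 25.5, 37.3, 38.9, 47.2 and 37.5 CPM in control (0.37 ± 0.11, adjusted p = 0.034). Both calls were lost when single tumors were left out, Atr without control replicates 2, 3 or 5 or 6 Gy replicates 1 or 2 (up to 0.087) and Bard1 without any of 8 tumors (0.052 to 0.091).

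In INDO tumors on day 7, Rbbp8 had 28.5, 24.4, 25.7, 28.3 and 30.8 CPM, against 37.6, 37.6, 34.9, 38.5 and 42.3 CPM in control, with no overlap (-0.41 ± 0.10, adjusted p = 0.008). Xrcc5 had 30.1, 30.3, 32.7, 27.9 and 33.1 CPM in INDO, against 34.2, 41.6, 44.1, 58.6 and 50.3 CPM in control, also with no overlap (-0.50 ± 0.12, adjusted p = 0.0086). Rnaseh2a had 23.9, 26.9, 15.8, 24.7 and 19.8 CPM in 6 Gy + INDO, against 25.1, 35.3, 33.5, 48.6 and 37.0 CPM in control, with 1 tumor inside the control range (-0.61 ± 0.14, adjusted p = 0.0024). Xrcc3 had 12.7, 11.5, 10.3, 15.7 and 13.6 CPM in 6 Gy + INDO, against 9.68, 10.1, 8.16, 7.10 and 9.44 CPM in control, every treated tumor above every control tumor (0.61 ± 0.15, adjusted p = 0.0037; 1.11 with housekeeping scaling). Xrcc5 had 27.6, 42.4, 31.3, 30.5 and 27.6 CPM in 6 Gy + INDO, where 1 tumor stood apart from the other 4, and was lower under TMM (-0.44 ± 0.12, adjusted p = 0.0083) and positive with housekeeping scaling (0.11, adjusted p = 0.41). No member was lower on day 7 with housekeeping scaling. Under it 5 members were higher in INDO (24.1% of all genes) and 28 in 6 Gy + INDO (56.8% of all genes). In INDO, Rbbp8 (-0.13, adjusted p = 0.46) and Xrcc5 (-0.20, adjusted p = 0.2) then lost their calls. Of the 5 6 Gy + INDO tumors of day 7, 3 have high receptor counts, and without the high-receptor tumors 1 member was higher and 3 were lower, with and without Mki67, and 1 and 4 in INDO. In 6 Gy 4 were then higher, and 0 with Mki67. With Mki67 the counts were 1 higher and 0 lower in 6 Gy (3.32% and 7.74%), 2 and 3 in INDO (12.7% and 12.3%) and 1 and 6 in 6 Gy + INDO (19.6% and 16.4%), and with the score in its place 2 and 0, 1 and 0, and 5 and 0. Over the left-out tumors the totals moved between 0 and 4 in 6 Gy, between 3 and 8 in INDO and between 4 (without control replicate 5) and 12 in 6 Gy + INDO, and with Mki67 between 0 and 1, 2 and 7, and 3 and 11.

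On day 15, 0 members were called in 6 Gy or INDO, and 0 were higher and 2 lower in 6 Gy + INDO (0.778% and 0.552% of 21195 genes; 0.0% for the other treatments). At an unadjusted p under 0.05 there were 9 members in 6 Gy, 3 in INDO and 12 in 6 Gy + INDO, and DESeq2 called 1, 1 and 4, all lower. Of the 37 members, 30, 22 and 29 had a negative fold change on this day, in the same order. The member medians were -0.17, -0.03 and -0.16, against -0.03, 0.01 and -0.03 for all genes. In 6 Gy the members thus leaned the other way than in the mean over days. Xrcc5 had 33.2, 39.4, 36.1, 41.8 and 39.3 CPM in 6 Gy + INDO, against 49.1, 49.8 and 64.3 CPM in control (-0.54 ± 0.11, adjusted p = 0.025), and Rbbp8 had 27.6, 29.7, 31.2, 34.9 and 28.4 CPM, against 39.7, 41.7 and 41.5 CPM in control (-0.45 ± 0.10, adjusted p = 0.042). Neither gene overlapped between the groups, yet without control replicate 3 the adjusted p was 0.2 for Xrcc5 and 0.19 for Rbbp8, and control replicate 2 or 6 Gy + INDO replicates 1 or 5 also ended both calls, as did leaving out the high-receptor tumors, 1 of them a control tumor (0.051 and 0.068). On day 23, 0 members were called in any treatment, with 2, 2 and 11 at an unadjusted p under 0.05 (order 6 Gy, INDO, 6 Gy + INDO). DESeq2 called 0, 0 and 1, the 1 being higher, and 27, 26 and 23 members had a positive fold change. Of 21133 genes, 0.00473% were called lower in 6 Gy + INDO and 0.0% otherwise. With Mki67, 4 members were lower on day 15 in 6 Gy + INDO (1.16% of all genes higher and 0.887% lower), 0 of them with the score or when control replicate 2 or 3 was left out or the 6 Gy + INDO replicate numbered 5, and 1 without the high-receptor tumors, and 0 were called in the other 5 comparisons of these days. Only 3 control tumors are available on each of these days.

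**Figure D5:**
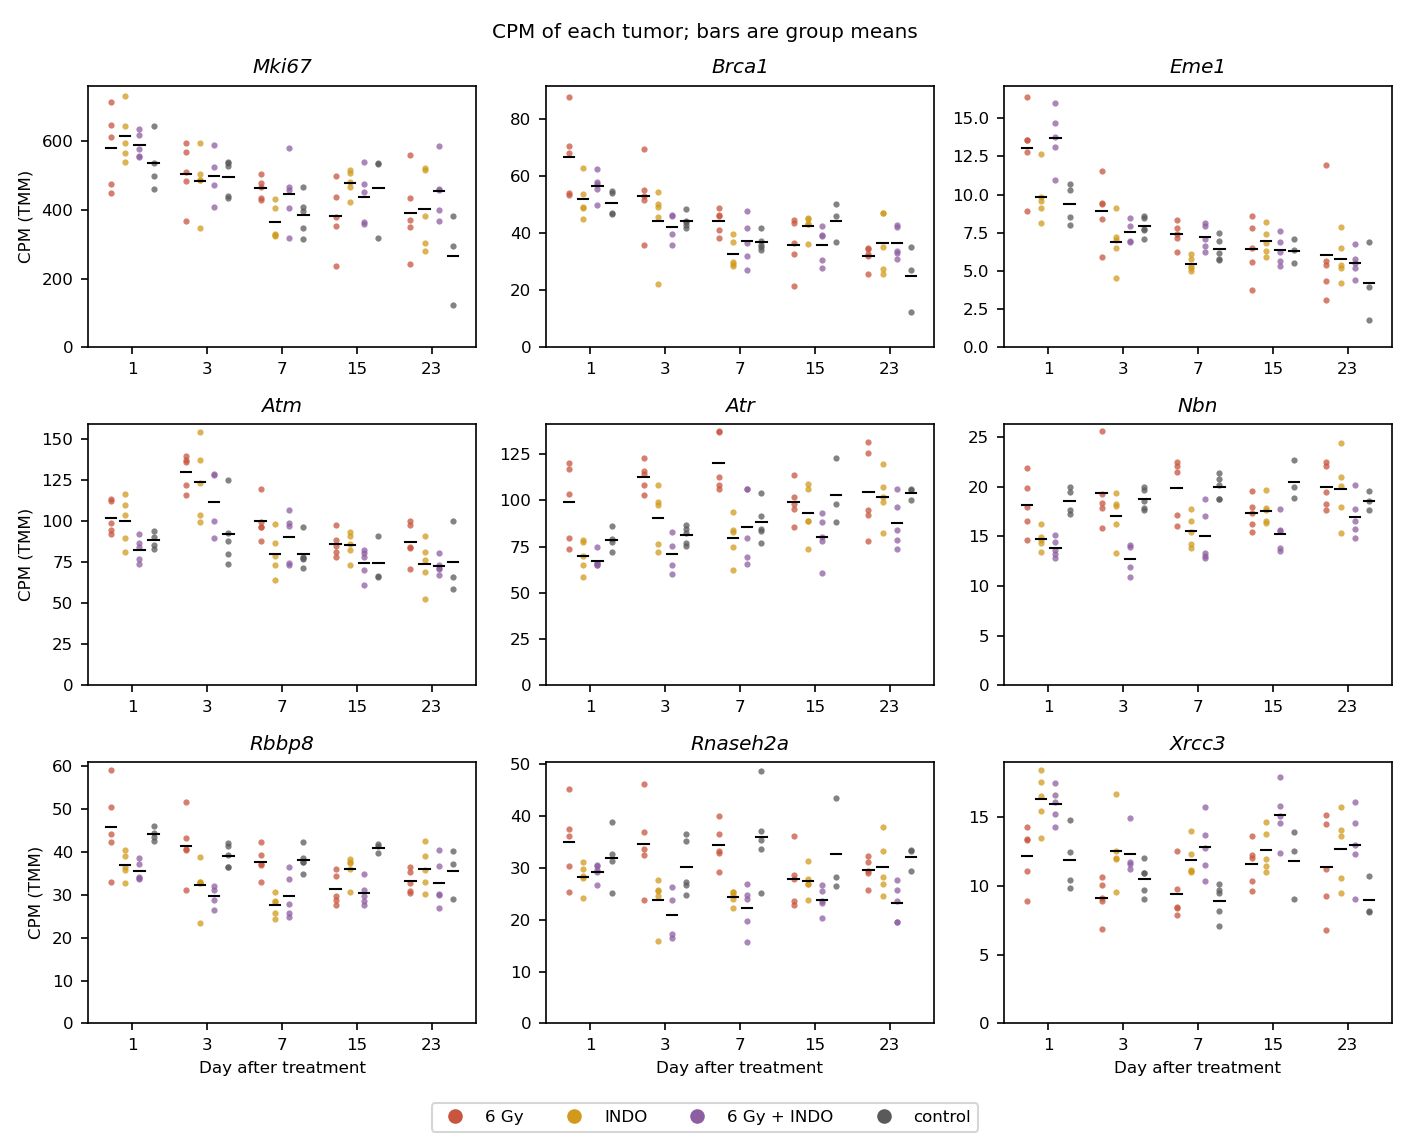
CPM of Mki67, Brca1, Eme1, Atm, Atr, Nbn, Rbbp8, Rnaseh2a and Xrcc3 in each of the 94 tumors (points, vertical axes) by day after IR (horizontal axes) and treatment (colors), with bars at the group means. On day 3, Atr lies at 103 to 123 CPM in 6 Gy and at 75.1 to 86.5 CPM in control, and Nbn lies at 10.96 to 14.1 CPM in 6 Gy + INDO and at 17.7 to 19.9 CPM in control.

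Whether a change differed between days was tested directly. After 6 Gy it did for Bard1 (adjusted p = 0.014) and Slx4 (adjusted p = 0.024), 2 of 37 members against 3.82% of all genes. Mean Bard1 on days 1, 3, 7, 15 and 23 was 52.9, 58.5, 48.0, 34.3 and 35.8 CPM in 6 Gy, against 45.3, 37.6, 37.3, 45.7 and 41.5 CPM in control, higher than control on the first 3 days and lower on the last 2. Mean Slx4 was 30.3, 22.4, 23.3, 26.7 and 33.4 CPM in 6 Gy, against 33.7, 30.8, 25.8, 24.8 and 23.1 CPM in control, the opposite course. This count fell to 0 without replicate number 2 or 3 and without day 15, fell to 1 without numbers 4 or 5 or with housekeeping scaling, and rose to 11 without number 1. In INDO 0 members were called (2.66% of all genes).

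In 6 Gy + INDO the change differed between days for Xrcc4 (adjusted p = 0.0036), Xrcc5 (adjusted p = 0.0042) and Wrn (adjusted p = 0.037), 3 of 37 members against 33.6% of all genes. Mean Xrcc5 was 50.4, 34.2, 31.9, 37.9 and 40.6 CPM in 6 Gy + INDO, against 40.2, 41.6, 45.8, 54.4 and 52.3 CPM in control, higher than control on day 1 and lower on the other 4 days. Mean Xrcc4 was 16.5, 14.1, 13.3, 12.2 and 15.2 CPM in 6 Gy + INDO, against 12.6, 13.8, 13.6, 16.0 and 19.5 CPM in control. Without day 1, 0 members were called, 7 were with housekeeping scaling or without replicate number 3, and 5 without INDO day 3 replicate 3.

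Other genes of these pathways, 82 in 5 lists, were all tested. In 6 Gy 9 were higher than control and 2 lower, which is 10.98% and 2.44% of them, against 9.19% and 10.6% of all genes. INDO tumors had 4 higher and 17 lower (4.88% and 20.7%, against 16.8% and 17.4% of all genes), and 6 Gy + INDO tumors 6 and 33 (7.32% and 40.2%, against 29.6% and 23.2%). Their medians were 0.03, -0.04 and -0.11, against 0.03, 0.07 and 0.19 for all genes. In 6 Gy + INDO against 6 Gy, 3 were higher and 40 lower (48.8%, against 19.8% of all genes lower), and against INDO 0 were higher and 10 lower (12.2%, against 3.54%). The recombination gene Rad51b led in 6 Gy (0.41 ± 0.09, adjusted p = 0.00025), with Fan1 and Rif1 also higher and the end processing nuclease gene Dclre1c (Artemis) lower (-0.26 ± 0.07, adjusted p = 0.0032). Etaa1, an activator of ATR, was lower in INDO (-0.35 ± 0.06, adjusted p = 9.2e-06) and in 6 Gy + INDO (-0.39 ± 0.06, adjusted p = 5.5e-07), as was the Fanconi ubiquitin ligase gene Fancl (-0.40 and -0.52). Parp1, which senses strand breaks, was lower in 6 Gy + INDO (-0.27 ± 0.05, adjusted p = 6.4e-06), and against 6 Gy the fork remodeler gene Hltf, Lig3, Rif1 and Rnf168 led the lower genes (-0.32, -0.21, -0.29 and -0.29). On Mki67, 29 of the 82 rose and 5 fell (35.4% and 6.10%, against 8.55% and 9.23% of all genes) with a median slope of 0.15, led by Rad54b (0.91), Clspn (0.89), Polq (0.93) and Dna2 (0.98). Dna2, a resection nuclease gene, was lower in 6 Gy + INDO than in control once Mki67 was in the model (-0.53 ± 0.07, adjusted p = 1.3e-08), a call lost with the score in its place (-0.15, adjusted p = 0.096).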

How the data were processed

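Total RNA from 94 fresh frozen 4T1 tumors was sequenced by the authors with an Illumina stranded total RNA kit. Per the submitters' processing notes, reads were handled with cutadapt, Partek 11.0.24.0328 and STAR, with the mouse build mm10, and the counting tool and annotation are not given in the sources used here. Estimated counts per gene, deposited by the authors in 1 table with 1 decimal, were rounded to whole numbers. Columns were mapped to tumors by the labels, and 0 columns were left unmapped.

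Tests were edgeR 4.0.16 quasi-likelihood F tests in R 4.3.3 (filterByExpr, TMM factors, limma 3.58.1), with Benjamini-Hochberg adjustment over all genes tested and calls at an adjusted p under 0.05. Means over days were taken from a joint model of 94 tumors in which each treatment had its own mean on each day, and day comparisons from the 4 groups of a day. Mki67 correction added the log2 CPM of Mki67 per tumor to these fits; corrected CPM divides out the fitted slope. DESeq2 1.42.0, RLE factors, scaling to 14 housekeeping genes, a score over 15 proliferation genes, no filter, left-out tumors, days or replicate numbers, and a block were alternatives; leaving out 1 INDO tumor was added after seeing the data. The scripts were tested on simulated data. SE is the absolute log2 fold change over the root of F.

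All 37 members may be named. Values of tumors, or their range, are given for Mki67, Mus81, Eme1 and up to 3 called members with the smallest p per comparison and model, and up to 4 genes of the 82 in other pathway lists are named per comparison; 1 listed gene is not reported here. The members and lists were chosen with earlier results of these data known. Each library is taken as 1 tumor, so p-values measure the spread between tumors. Libraries hold 20995830 to 109300093 counts, and no 2 are identical. Of 49080 genes 47089, with all 37 members, matched the annotation used for exon length.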

Additional observations from a re-analysis of the deposited data

Results flagged for a closer look

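In 54 groups of 4 or 5 tumors, the highest and lowest values of the named members were compared with the rest of their group, and 2 stood apart, where chance alone gives about 1 in 20. Mus81 was lowest in 1 control tumor of day 3 (9.84 CPM, against 12.0 to 12.6 CPM in the other 4). Xrcc5 was highest in 1 of the 6 Gy + INDO tumors of day 7 (42.4 CPM, against 27.6 to 31.3 CPM in the other 4).

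The treatment effect differed between days for 5 members by the joint F test. These were Bard1 (adjusted p = 0.014) and Slx4 (adjusted p = 0.024) after 6 Gy, and Xrcc4 (adjusted p = 0.0036), Xrcc5 (adjusted p = 0.0042) and Wrn (adjusted p = 0.037) after 6 Gy + INDO. Of all genes, 3.82% differed between days in 6 Gy and 33.6% in 6 Gy + INDO. The share of the members was near that of all genes in 6 Gy and below it in 6 Gy + INDO. The Wrn change was 0.20, -0.04, -0.24, -0.38 and -0.28 on the log2 scale on days 1, 3, 7, 15 and 23. The 6 Gy calls were lost without replicate number 2 or 3, and those of 6 Gy + INDO without day 1. What lies behind the differences was not tested.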

How the results depend on the processing

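The counts of members called were recomputed with 1 choice changed at a time, and the cause of a moved count was not tested. Comparisons are named in the order 6 Gy, INDO and 6 Gy + INDO against control, then 6 Gy + INDO against 6 Gy and against INDO. As means over days without Mki67, the counts higher were 8, 3, 5, 4 and 0 and the counts lower 0, 6, 11, 19 and 1. Housekeeping scaling gave 8, 9, 23, 11 and 6 higher and 0, 0, 0, 3 and 0 lower; the share of higher calls among all called genes was then 53.6%, 78.8%, 92.0%, 95.0% and 98.2%, against 46.4%, 49.1%, 56.0%, 56.6% and 67.0% with TMM, and the shift of all genes in the last comparison was 0.18. DESeq2 gave 9, 5, 8, 5 and 0 higher and 0, 6, 10, 17 and 1 lower, and RLE factors 9, 5, 8, 5 and 0 higher. Without a filter 7, 1, 5, 2 and 0 were higher, and without the high-receptor tumors 6, 1, 2, 2 and 0. Leaving out a day moved the higher counts to between 2 (day 1) and 17 (day 15) in 6 Gy, 1 and 2 in INDO, 1 and 5 in 6 Gy + INDO and 1 and 3 against 6 Gy, and the lower counts to between 0 and 1 (without day 23), 0 (day 7) and 6, 8 and 15, 15 and 25, and 0 and 3. No member met a limit of 2-fold with p under 0.05 in any comparison (0 in all).

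With Mki67 in the model the counts were 6, 1, 1, 5 and 0 higher and 1, 11, 19, 25 and 2 lower. Housekeeping scaling gave 6, 1, 4, 5 and 1 higher and 1, 4, 4, 10 and 0 lower. Of all genes it called 6.88%, 12.6%, 25.4%, 24.6% and 6.19% higher and 11%, 10.3%, 7.47%, 4.81% and 0.422% lower. Counts scaled by Mki67, which fixes the slope at 1, gave 0, 0, 0, 1 and 0 higher and 1, 16, 25, 24 and 0 lower. The proliferation score gave 10, 11, 14, 9 and 3 higher and 1, 4, 10, 13 and 3 lower, and the shares of all genes are not given for it. DESeq2 gave 3 higher in 6 Gy + INDO and 1 each way against INDO, RLE factors 2 higher in 6 Gy + INDO and 1 lower against INDO, and no filter 7 lower in INDO, 3 higher against 6 Gy, 0 lower in 6 Gy and 1 lower against INDO. Leaving out a day gave 2 to 8 higher in 6 Gy, 2 to 10 lower in INDO, 10 to 23 lower in 6 Gy + INDO, 1 to 3 higher against 6 Gy, 0 to 7 lower against INDO and up to 2 higher elsewhere.

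Within days, in the order 6 Gy, INDO, 6 Gy + INDO, the totals for the days, early to late, were 6, 1 and 7; 4, 0 and 2; 2, 5 and 8; 0, 0 and 2; and 0 throughout. Housekeeping scaling gave 1, 0 and 3 at day 1, then 1, 0 and 10 at day 3, then 14, 5 and 28 at day 7, and 0 on the last 2 days. All of them were higher except 1 in 6 Gy + INDO on day 1. Of all genes, 2.04%, 4.87% and 9.36% were then higher at day 1. At day 3 these shares were 3.22%, 0.44% and 33.7%, and at day 7 they were 13.3%, 24.1% and 56.8%. With TMM, 3 of 5 in INDO and 6 of 8 in 6 Gy + INDO on day 7 and both in 6 Gy + INDO on day 3 were lower. DESeq2 gave 8, 3 and 10; 7, 2 and 3; 3, 6 and 10; 1, 1 and 4; and 0, 0 and 1. One fit of all 94 tumors gave 2, 0 and 3; 5, 1 and 6; 1, 5 and 9; 0, 0 and 0; and 0, 0 and 9. With Mki67, counts scaled by it gave 15 in 6 Gy + INDO at day 7 and 19 at day 23, the score 13 at day 1, and the fit of all 94 tumors 9, 1 and 8 at day 3 and 13 in 6 Gy + INDO at day 7. Without a filter the day 7 total in 6 Gy + INDO with Mki67 was 11, and DESeq2 gave 10 in 6 Gy on day 3. Between days, RLE factors or leaving out day 7 gave 5 members in 6 Gy.

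Leaving out INDO day 3 replicate 3, which stood apart in B cell transcripts, was an alternative chosen after seeing the data; it gave 7 lower in INDO with Mki67 and 5 members between days in 6 Gy + INDO, and moved no other count by over 1.5 times.

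A block on the replicate number was fitted, although the labels do not say that a number pairs tumors. Of 132 pairs of tumors that share a day and a number, 61 had a correlation of their deviations over 0.1 (median 0.072). Among pairs with different numbers it was 190 of 528 (median -0.019). Whether a shared number marks a shared batch was not tested. With the replicate block 6, 4, 7, 3 and 0 members were higher and 0, 6, 10, 18 and 1 lower as means over days, 5, 1, 1, 3 and 0 higher and 1, 11, 19, 24 and 1 lower with Mki67, 2, 2 and 7 were called at day 1, 4, 0 and 2 at day 3, 0, 3 and 5 at day 7 and 0, 0 and 1 at day 15, and 1 differed between days in 6 Gy.

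Leaving out each replicate number in turn gave 5 to 12, 1 to 3, 1 to 6, 1 to 3 and 0 higher and 0, 1 to 6, 10 to 15, 14 to 24 and 1 to 3 lower, and with Mki67 3 to 6, 1 to 2, 1 to 2, 1 to 3 and 0 higher and 0 to 1, 2 to 14, 12 to 22, 21 to 25 and 1 to 5 lower. On single days, leaving out each tumor gave 1 to 16, 0 to 3 and 3 to 11 at day 1, 1 to 8, 0 to 1 and 0 to 6 at day 3, 0 to 4, 3 to 8 and 4 to 12 at day 7 and 0 to 4 in 6 Gy + INDO at day 15, and with Mki67 0 to 12, 0 to 4 and 3 to 9, 3 to 8, 0 to 1 and 2 to 7, 0 to 1, 2 to 7 and 3 to 11, and 0 to 5. Between days the range was 0 to 11 in 6 Gy and 2 to 7 in 6 Gy + INDO.

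Mus81 and Eme1, named in every comparison, changed sign most often and only where they were not called in the first place, except that Mus81 turned to 0.084 in 6 Gy + INDO and 0.026 against 6 Gy with housekeeping scaling. In 6 Gy, Mus81 (-0.0030) was 0.019 with the block, 0.0012 with DESeq2, 0.0038 with RLE factors, 0.059 with housekeeping scaling, 0.011, 0.036 and 0.046 without days 1, 3 and 7, and between -0.069 and 0.032 without a replicate number. With Mki67 in the model it was -0.0053 and -0.069 without days 15 and 23, -0.016 without high-receptor tumors, -0.21 when scaled by Mki67 and between -0.0056 and 0.034 without a number. In INDO, Mus81 was 0.071 with housekeeping scaling, and with Mki67 in the model 4e-05 without day 7 and between -0.094 and 0.037 without a number, and against INDO it was 0.014 with housekeeping scaling. Eme1 was -0.070 in INDO without day 23 and between -0.031 and 0.14 without a number, 0.19 against 6 Gy with housekeeping scaling, and, with Mki67 in the model, -0.070 in 6 Gy + INDO without day 1 and between -0.016 and 0.064 without a number, 0.20 in INDO and 0.17 against 6 Gy with the score. Rbbp8 in 6 Gy + INDO was 0.0026 with housekeeping scaling, and Xrcc5 on day 7 was 0.11.

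Days 15 and 23 hold 3 control tumors each, and depth was lowest in 6 Gy + INDO and INDO tumors.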

Other observations

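The span of a gene on the chromosome moved with the treatment effect over all genes. In 6 Gy + INDO against control, genes of 20 to 50 kb had a median log2 fold change of -0.05, with 20.2% higher and 34.5% lower, while genes of up to 5 kb had a median of 0.66, with 43.0% higher and 9.54% lower. Of the 37 members, 23 span 20 to 100 kb. In this comparison the members of 20 to 50 kb had a median of -0.004, against -0.05 for all genes of that span. For 50 to 100 kb it was -0.008, against -0.04. In each other span the member median lay below that of all genes. In 6 Gy + INDO against 6 Gy, the member medians of 20 to 50 and 50 to 100 kb were -0.13 and -0.18. All genes of these spans had -0.02 and -0.04. The part of gene span in the member changes was not tested.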
